A study of Homo sapiens with 24 samples.

Results

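SOX4, SOX8, SOX9, SOX12 and SOX13 are 5 transcription factors of the SOX family whose RNA was followed across 8 groups of prostate cancer cells. They were taken as the genes of those names in the platform's gene annotation, and each had 1 probe. They are 5 of 13789 genes that passed the detection filter, out of 20042 genes with a probe. The set was put together around SOX8 and SOX9, which were higher after loss or inhibition of EZH2, so the genes were chosen by their treated-against-control differences, which are given below as descriptions with a standard error and no test. Tests of these genes are given only between groups of control arrays, which are also the controls of those differences.

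SOX proteins bind DNA through an HMG box related to that of the male sex-determining factor SRY, bend it, and act with partner factors. SOX8 and SOX9 belong to the SOXE subgroup, and SOX9 directs cartilage formation and testis development and is expressed in prostate epithelium. SOX4 and SOX12 belong to the SOXC subgroup, which supports the survival of progenitor cells, and SOX4 RNA is often high in prostate tumours. SOX13 belongs to the SOXD subgroup, whose members lack an activation domain of their own and work through partner proteins. Polycomb repressive complex 2 places methyl groups on histone H3 at silenced genes through its enzyme EZH2, and EPZ6438 (tazemetostat) blocks that enzyme's activity.

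The cells were LNCaP, an androgen-dependent human prostate cancer line, and C4-2B, a line derived from it that grows with little androgen. Each line received either the solvent DMSO or EPZ6438 at 1 µM, or was transfected with a control siRNA (siControl) or with an siRNA directed at the EZH2 coding sequence (siEZH2), and RNA was taken after 3 days. All cells grew in RPMI medium with fetal bovine serum, and each group had 3 bead arrays. DMSO and siControl cells belong to separate treatments, so every comparison that crosses them holds transfection and experiment together, and these cannot be told apart. The labels number the arrays but do not say whether they came from separate cultures, so errors and p-values reflect how far these arrays scatter, and that scatter could be technical alone.

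Upstream sequence from RefSeq (GRCh38.p14) was found for SOX4, SOX12 and SOX13, and was matched by symbol for 3 of 5 genes. The SOX8 and SOX9 promoters are not shown. The 250 bases before the annotated start are printed to show how far these genes differ in CG pairs, which PRC2-bound promoters are known to be rich in. Capitals mark each CG pair, and all 3 genes lie on the plus strand.
SOX4, chr6:21593501-21593750: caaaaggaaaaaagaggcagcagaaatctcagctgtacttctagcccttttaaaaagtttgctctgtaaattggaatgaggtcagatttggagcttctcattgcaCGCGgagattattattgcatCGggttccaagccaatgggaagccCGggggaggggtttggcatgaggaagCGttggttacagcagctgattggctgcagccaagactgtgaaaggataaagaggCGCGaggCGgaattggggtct
SOX12, chr20:325302-325551: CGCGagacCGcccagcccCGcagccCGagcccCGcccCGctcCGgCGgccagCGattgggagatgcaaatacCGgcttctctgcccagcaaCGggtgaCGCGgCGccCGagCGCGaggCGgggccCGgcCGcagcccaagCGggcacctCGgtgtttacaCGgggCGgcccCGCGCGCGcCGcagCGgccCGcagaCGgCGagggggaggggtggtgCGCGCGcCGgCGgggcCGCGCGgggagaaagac
SOX13, chr1:204072865-204073114: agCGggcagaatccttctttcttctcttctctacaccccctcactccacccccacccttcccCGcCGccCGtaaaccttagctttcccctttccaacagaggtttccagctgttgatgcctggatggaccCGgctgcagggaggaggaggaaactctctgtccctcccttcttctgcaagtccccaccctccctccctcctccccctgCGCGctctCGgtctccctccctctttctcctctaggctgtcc
The SOX12 stretch held 42 CG pairs with a GC content of 79.2%. The SOX4 and SOX13 stretches held 8 each, with GC contents of 48.8% and 60.8%. Among 35116 promoters of the same length the median was 11 CG pairs and a GC content of 58%. At least 42 CG pairs stood in 1.38% of them, and at least 8 in 56.3%. The letters CCAAT, searched on both strands, occurred 4 times before SOX4, 1 time before SOX12 and 0 times before SOX13, and 32% of all promoters held them. The letters ACAAT, the core of the sequence that SOX proteins bind, occurred in none of the 3 stretches on either strand, and 24.6% of all promoters held them.

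Each array detected 19304 to 21653 of its 47311 probes, where a probe counts as detected at a detection p under 0.05. Arrays of a group correlated at 0.98629 to 0.99662. EZH2 RNA was lower after siEZH2, with a log2 difference of -0.87 ± 0.16 (SE) in LNCaP (limma, adjusted p = 0.000174), and in C4-2B cells the difference was -1.02 ± 0.16 (adjusted p = 7.16e-05). Both calls were lost with arrays centred on the median probe (adjusted p = 0.0536 and 0.0533). After EPZ6438 the differences were -0.12 ± 0.16 (adjusted p = 0.739) and -0.00 ± 0.16 (adjusted p = 0.996). Luminal prostate markers such as KLK3, TMPRSS2 and KRT8 were detected on all 24 arrays for 10 of 10 genes with a probe, while the basal keratins KRT5 and KRT14, the cartilage genes COL2A1 and ACAN, the stromal gene LUM and the leukocyte gene PTPRC were detected on 0 arrays. Other genes of those lists were detected, among them the collagen gene COL1A1 on 21 arrays, CD14 on 20 and ITGB4 on 9, and so were the neuroendocrine-list genes ENO2 on 23 and INSM1 on 15, while CHGB and SYP were detected on 0. The summed luminal level, as log2 of the normalised intensity, ranged over 13.7–13.84 in LNCaP siControl and 12.84–12.91 in LNCaP siEZH2, over 11.76–12.04 and 11.62–11.96 in C4-2B, over 13.44–13.57 in LNCaP DMSO and 13.72–14.2 in LNCaP EPZ6438, and over 13–13.15 and 13.76–13.83 in C4-2B. The summed cartilage and fibroblast level was 7.126–7.185 in LNCaP siControl and 7.25–7.263 in LNCaP siEZH2, and lay between 7.126 and 7.33 on all arrays. The basal sum was 6.233–6.324 in C4-2B siControl and 6.348–6.645 in C4-2B siEZH2, and 6.222–6.397 in C4-2B DMSO and 6.399–6.508 in C4-2B EPZ6438. The neuroendocrine sum was 7.23–7.433 in C4-2B DMSO and 7.501–7.625 in C4-2B EPZ6438, and the blood sum 6.292–6.356 in LNCaP siControl and 6.406–6.555 in LNCaP siEZH2. Of the luminal pairs only the C4-2B siRNA groups overlapped. For the other lists the pairs given are those that lay apart. Their remaining treated groups overlapped or touched their controls, as the blood sum did in C4-2B (6.377–6.59 with siControl, 6.455–6.519 with siEZH2). The neuroendocrine sum in LNCaP did so too (7.116–7.254 with siControl, 7.136–7.227 with siEZH2). The part of these shifts in the SOX values was not tested.

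SOX9 (Entrez 6662, chromosome 17, 72121020 to 72126416 of GRCh38.p14) was higher in both lines after both treatments. RNA came from whole cultures, so fewer cells of a kind and less RNA per cell cannot be told apart. All levels below are log2 normalised intensities of 1 probe, so levels of different genes are not set against each other. In LNCaP, SOX9 read 5.80, 6.06 and 5.79 with DMSO and 6.97, 7.16 and 7.36 with EPZ6438. It read 5.26, 5.41 and 5.32 with siControl and 6.40, 6.35 and 6.38 with siEZH2. Every treated LNCaP array lay above every array of its own control. In C4-2B the levels were 4.75, 4.20 and 4.20 with DMSO and 5.62, 5.40 and 5.28 with EPZ6438. They were 4.50, 4.84 and 4.74 with siControl and 5.10, 5.31 and 5.41 with siEZH2. Here too the treated arrays stood apart from their controls, but SOX9 was detected on only 1 of 3 C4-2B DMSO arrays and 2 of 3 C4-2B siControl arrays, so the C4-2B control levels lay near the detection limit.

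The SOX9 difference was 1.28 ± 0.14 (log2, SE) for EPZ6438 and 1.04 ± 0.14 for siEZH2 in LNCaP, or 2.43-fold and 2.06-fold. In C4-2B it was 1.05 ± 0.14 for EPZ6438 and 0.58 ± 0.14 for siEZH2, with no fold given, since 1 of 3 and 2 of 3 of the control arrays detected the probe. From the highest mean to the lowest the groups ran LNCaP EPZ6438 (7.16 ± 0.19, SD, n = 3), LNCaP siEZH2 (6.38 ± 0.02), LNCaP DMSO (5.88 ± 0.15), C4-2B EPZ6438 (5.43 ± 0.17), LNCaP siControl (5.33 ± 0.08), C4-2B siEZH2 (5.27 ± 0.16), C4-2B siControl (4.69 ± 0.17) and C4-2B DMSO (4.38 ± 0.32). In this order 3 of 7 neighbouring pairs overlapped, so the order among the C4-2B treated groups and LNCaP siControl, and that of the C4-2B controls, is not resolved. Both C4-2B treated groups reached about the level of LNCaP siControl and remained below every LNCaP DMSO array. SOX9 differences depended on the background step: without background correction they were 0.465 and 0.182 for siEZH2 in LNCaP and C4-2B, and 0.715 and 0.362 for EPZ6438.

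SOX8 (Entrez 30812, chromosome 16, 981770 to 986979), the close relative of SOX9 that acts with it in testis and neural crest, differed between the treatments. In LNCaP it read 7.24, 7.28 and 7.28 with siControl and 9.19, 9.12 and 9.33 with siEZH2. In C4-2B it read 6.58, 6.45 and 6.83 with siControl and 8.94, 8.65 and 9.10 with siEZH2. The siEZH2 arrays of both lines lay above all other arrays of the study. With EPZ6438 the LNCaP levels were 7.12, 7.51 and 7.01 beside 7.10, 7.16 and 7.21 with DMSO, and these groups overlapped. The C4-2B levels were 8.04, 7.74 and 7.87 beside 7.00, 7.15 and 7.08 with DMSO, and these did not overlap. As differences, siEZH2 gave 1.94 ± 0.13 in LNCaP (3.85-fold) and 2.27 ± 0.13 in C4-2B (4.84-fold), and EPZ6438 gave 0.05 ± 0.13 in LNCaP and 0.80 ± 0.13 in C4-2B (1.75-fold).

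The siEZH2 effect on SOX8 exceeded the EPZ6438 effect, by 1.89 ± 0.18 for LNCaP and by 1.47 ± 0.18 for C4-2B. For SOX9 the same differences between effects were -0.24 ± 0.19 and -0.47 ± 0.19, that is, EPZ6438 gave the larger value. In LNCaP this order turned with arrays centred on the median probe, where SOX9 gave 1.33 for siEZH2 and 1.25 for EPZ6438. The group means of SOX8 were 9.21 ± 0.11 (SD) in LNCaP siEZH2, 8.90 ± 0.23 in C4-2B siEZH2, 7.88 ± 0.15 in C4-2B EPZ6438, 7.27 ± 0.02 in LNCaP siControl, 7.21 ± 0.26 in LNCaP EPZ6438, 7.16 ± 0.06 in LNCaP DMSO, 7.08 ± 0.07 in C4-2B DMSO and 6.62 ± 0.20 in C4-2B siControl. The 4 groups from LNCaP siControl to C4-2B DMSO ran into each other, with 3 of 7 neighbouring pairs overlapping in all.

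**Figure D1:**
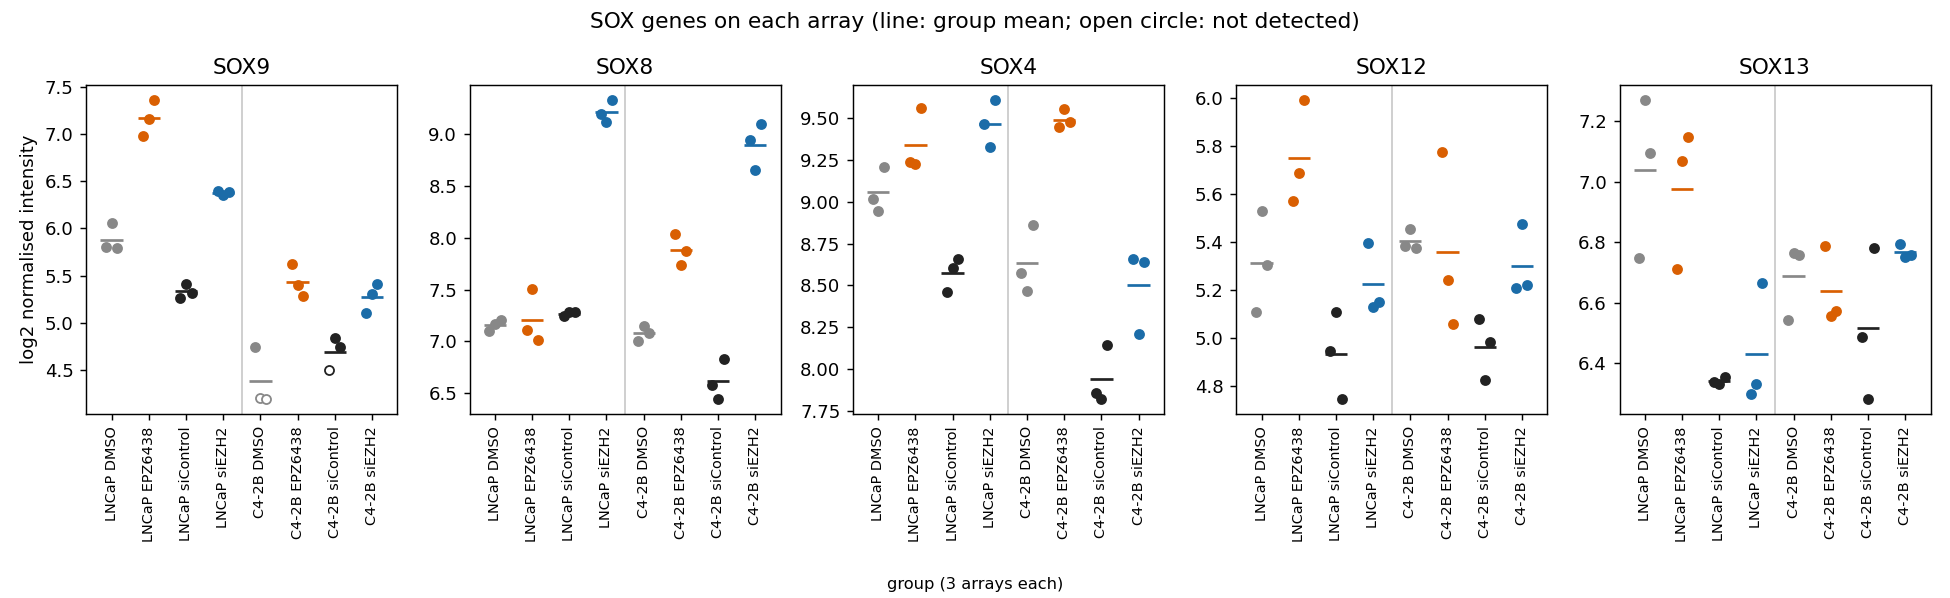
Log2 normalised intensity of each SOX gene (1 panel per gene, each with its own vertical scale) on the 24 arrays, by group along the horizontal axis, with a bar at the mean of 3 arrays and open circles where the probe was not detected. SOX8 on the siEZH2 arrays of both lines, between 8.65 and 9.33, lies above every other array, and SOX9 is not detected on 3 arrays, all of C4-2B controls.

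SOX4 (Entrez 6659, chromosome 6, 21593751 to 21598619) was higher in each treated group than in its control. In LNCaP it read 8.46, 8.61 and 8.66 with siControl and 9.46, 9.32 and 9.61 with siEZH2, and 9.02, 8.95 and 9.21 with DMSO beside 9.24, 9.22 and 9.56 with EPZ6438. The LNCaP siRNA groups were well apart, while the LNCaP EPZ6438 and DMSO arrays were separated by a narrow gap. In C4-2B it read 7.86, 7.82 and 8.15 with siControl and 8.66, 8.21 and 8.64 with siEZH2, and 8.57, 8.47 and 8.86 with DMSO beside 9.44, 9.55 and 9.47 with EPZ6438. No treated group overlapped its control. The differences were 0.89 ± 0.13 for siEZH2 and 0.28 ± 0.13 for EPZ6438 in LNCaP. In C4-2B they were 0.56 ± 0.13 and 0.85 ± 0.13. By these values the larger effect was in LNCaP for siEZH2 and in C4-2B for EPZ6438. The C4-2B effect minus the LNCaP effect was -0.33 ± 0.19 for siEZH2 and 0.57 ± 0.19 for EPZ6438. Whether the lines differ in these effects was not tested. In order of mean level, the 3 groups C4-2B EPZ6438 (9.49), LNCaP siEZH2 (9.47) and LNCaP EPZ6438 (9.34) came first and C4-2B siControl (7.94) last, and 4 of 7 neighbouring pairs overlapped.

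SOX12 (Entrez 6666, chromosome 20, 325552 to 330224) is the other SOXC gene of the 5. Its differences were smaller than those of SOX4 except with EPZ6438 in LNCaP. In LNCaP it read 4.95, 5.11 and 4.75 with siControl and 5.40, 5.13 and 5.15 with siEZH2, and 5.11, 5.53 and 5.30 with DMSO beside 5.57, 5.69 and 5.99 with EPZ6438. Both LNCaP pairs of groups were apart, by a narrow margin. In C4-2B it read 5.08, 4.82 and 4.98 with siControl and 5.21, 5.47 and 5.22 with siEZH2, which did not overlap, and 5.38, 5.46 and 5.38 with DMSO beside 5.78, 5.24 and 5.06 with EPZ6438, which did. The differences were 0.29 ± 0.15 and 0.34 ± 0.15 for siEZH2 in LNCaP and C4-2B, and 0.44 ± 0.15 and -0.05 ± 0.15 for EPZ6438.

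SOX13 (Entrez 9580, chromosome 1, 204073115 to 204127743), the SOXD gene, showed no treated group apart from its control. Its group means lay between 6.34 in LNCaP siControl and 7.04 in LNCaP DMSO, and 7 of 7 neighbouring pairs overlapped. The differences were 0.09 ± 0.14 and 0.25 ± 0.14 for siEZH2 in LNCaP and C4-2B, and -0.06 ± 0.14 and -0.05 ± 0.14 for EPZ6438. The C4-2B siEZH2 arrays, at 6.79, 6.75 and 6.76, lay within the range of the C4-2B siControl arrays at 6.49, 6.28 and 6.78, apart from 1 array just above it.

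Over the 5 genes, the treated arrays lay wholly above their controls for 4 genes (all but SOX13) with siEZH2 in LNCaP, where 25.5% of all genes did so, and for the same 4 in C4-2B, against 18.1%. With EPZ6438 they did so for 3 genes in LNCaP (SOX4, SOX9 and SOX12), against 11.9%, and for 3 in C4-2B (SOX4, SOX8 and SOX9), against 15.1%. Since these differences chose the genes, nothing is read from the counts. The median log2 difference of the 5 genes was 0.891, 0.559, 0.282 and 0.804 in that order, and that of all genes was 0.0222, 0.0252, 0.00855 and 0.00402. Centring arrays on their median probe in place of quantile normalisation moved the all-gene median of the siEZH2 comparisons to 0.184 (LNCaP) and 0.21 (C4-2B). The SOX4, SOX8 and SOX9 differences stayed above it, at 1.21, 2.3 and 1.33 for LNCaP and at 0.907, 2.62 and 0.787 for C4-2B.

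**Figure D2:**
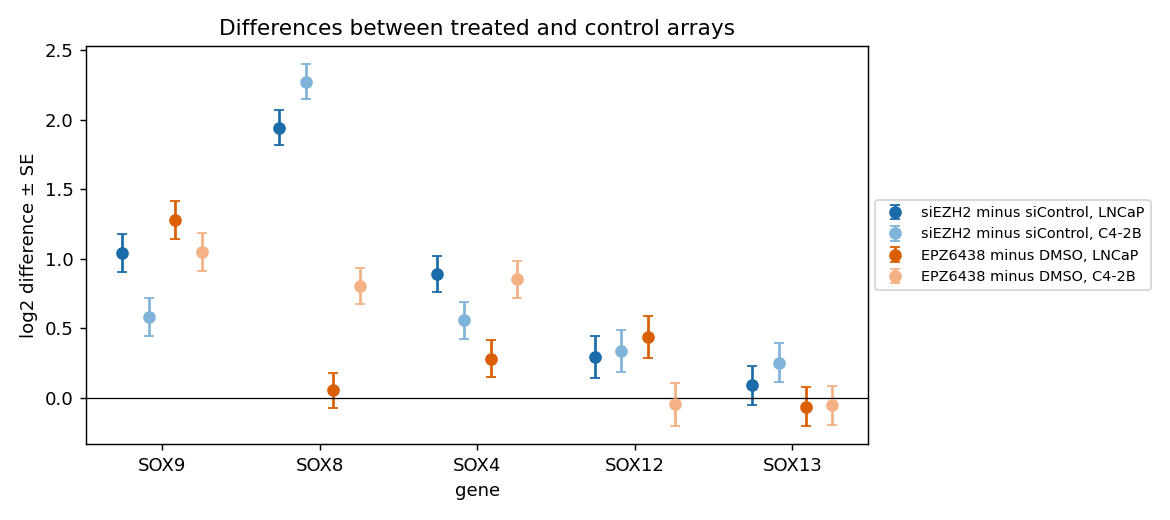
Log2 difference between treated and control arrays (vertical axis) for each SOX gene, in 4 comparisons of 3 against 3 arrays, with bars of 1 standard error of the fit. SOX8 reaches 1.94 and 2.27 with siEZH2 but 0.05 and 0.80 with EPZ6438, while SOX9 lies between 0.58 and 1.28 in all 4.

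Tests are given between groups of control arrays. The choice of the genes did not use these comparisons, but it used the same control arrays, so the tests are not independent of it. Between the lines, SOX9 was lower in C4-2B than in LNCaP in both kinds of control. With DMSO the C4-2B minus LNCaP difference was -1.50 ± 0.14 (limma, adjusted p = 3.64e-09), measured against a C4-2B group of which 1 of 3 arrays detected SOX9, so no fold is given. With siControl it was -0.64 ± 0.14 (limma, adjusted p = 0.000424), with SOX9 detected on 2 of 3 C4-2B arrays. The arrays of the lines did not overlap in either control. The size depended on the background step, at -0.547 (adjusted p = 3.88e-07) and -0.201 (adjusted p = 0.0108) without background correction, and both calls held under every alternative run.

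SOX4 was also lower in C4-2B, by -0.42 ± 0.13 with DMSO (adjusted p = 0.0126) and by -0.63 ± 0.13 with siControl (adjusted p = 0.000323). The SOX4 call with DMSO was lost without LNCaP DMSO replicate 3 (adjusted p = 0.0725) or C4-2B DMSO replicate 2 (adjusted p = 0.0762), and with arrays centred on the median probe (adjusted p = 0.0861). It was also lost without replicate 1 (adjusted p = 0.101) or replicate 2 (adjusted p = 0.0648) of every group. SOX8 was lower in C4-2B with siControl, at -0.65 ± 0.13 (adjusted p = 0.00016), while with DMSO its difference was -0.08 ± 0.13 (adjusted p = 0.671). SOX13 gave -0.35 ± 0.14 with DMSO (adjusted p = 0.0498), with arrays that overlapped, and the call was lost in 12 of 19 alternatives, among them the loss of any compared array but LNCaP DMSO replicate 1 (adjusted p 0.0584 to 0.251). With siControl it gave 0.18 ± 0.14 (adjusted p = 0.333). SOX12 gave 0.09 ± 0.15 (adjusted p = 0.68) and 0.03 ± 0.15 (adjusted p = 0.898). In all, 3 of 5 genes were called in each control, all lower in C4-2B. Of all genes tested, 39.8% were called with DMSO, 20% as lower, and 46.9% with siControl, 24.3% as lower.

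The line difference itself varied with the kind of control for some of these genes, by a test added after the values had been seen. The line difference over siControl arrays minus that over DMSO arrays was 0.86 ± 0.19 for SOX9 (limma, adjusted p = 0.00127), -0.57 ± 0.18 for SOX8 (adjusted p = 0.016) and 0.53 ± 0.20 for SOX13 (adjusted p = 0.0425). For SOX4 it was -0.21 ± 0.19 (adjusted p = 0.434) and for SOX12 -0.06 ± 0.22 (adjusted p = 0.865). Of all genes, 34.1% were called in this test. The SOX9 value rests on C4-2B DMSO arrays of which 1 of 3 detected the probe, and it was 0.346 without background correction (adjusted p = 0.00401). With arrays centred on the median probe, the SOX8 call (adjusted p = 0.35) and the SOX9 call (adjusted p = 0.0602) were both lost. Both were lost too without replicate 2 of every group (adjusted p = 0.096 and 0.0985), and SOX8 without replicate 1 of every group (adjusted p = 0.117). The SOX8 call was also lost without C4-2B siControl replicate 2 (adjusted p = 0.0527), the SOX9 call with centring on the probes detected on all arrays (adjusted p = 0.0793), and the SOX13 call in 15 of 25 alternatives, among them the loss of any of the 12 control arrays but LNCaP DMSO replicate 1, C4-2B DMSO replicates 2 and 3 and C4-2B siControl replicate 2 (adjusted p 0.0595 to 0.136).

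Within each line, 3 of 5 SOX genes were lower in siControl than in DMSO cells. In LNCaP, SOX13 was lower by -0.70 ± 0.14 (limma, adjusted p = 0.000606), SOX9 by -0.55 ± 0.14 (adjusted p = 0.00433) and SOX4 by -0.48 ± 0.13 (adjusted p = 0.0083), while SOX12 gave -0.38 ± 0.15 (adjusted p = 0.0694) and SOX8 0.11 ± 0.13 (adjusted p = 0.576). In C4-2B, SOX4 was lower by -0.69 ± 0.13 (adjusted p = 0.000163), SOX8 by -0.46 ± 0.13 (adjusted p = 0.00553) and SOX12 by -0.44 ± 0.15 (adjusted p = 0.0232), while SOX9 gave 0.31 ± 0.14 (adjusted p = 0.0784) and SOX13 -0.17 ± 0.14 (adjusted p = 0.358). Thus 3 of 5 genes were called in each line, all lower in siControl cells. Of all genes, 26.5% were called in LNCaP, 13.8% as lower, and 40.2% in C4-2B, 21.1% as lower. All 6 of these calls were lost when arrays were centred on the median probe, where the adjusted p was 0.0921 for SOX13, 0.101 for SOX9 and 0.519 for SOX4 in LNCaP, and 0.239 for SOX4, 0.426 for SOX8 and 0.172 for SOX12 in C4-2B. The SOX4 call in LNCaP was lost without LNCaP DMSO replicate 3 (adjusted p = 0.0512) and without replicate 1 of every group (adjusted p = 0.108). Without replicate 2 of every group, the calls of SOX9 in LNCaP (adjusted p = 0.0947) and of SOX8 and SOX12 in C4-2B (0.0646 and 0.223) were lost. The SOX8 call in C4-2B was also lost without replicate 1 (0.0561), and that of SOX12 without replicate 3 (0.0557), of every group. The SOX12 call in C4-2B was lost without C4-2B DMSO replicate 2 (adjusted p = 0.068) or C4-2B siControl replicate 2 (adjusted p = 0.0982). Without LNCaP DMSO replicate 1, SOX12 was called in LNCaP (adjusted p = 0.0413). Without C4-2B DMSO replicate 1, the C4-2B DMSO array with the highest SOX9 level, SOX9 was called higher in C4-2B siControl cells (adjusted p = 0.00493), as it was without C4-2B siControl replicate 1 (adjusted p = 0.0395).

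**Figure D3:**
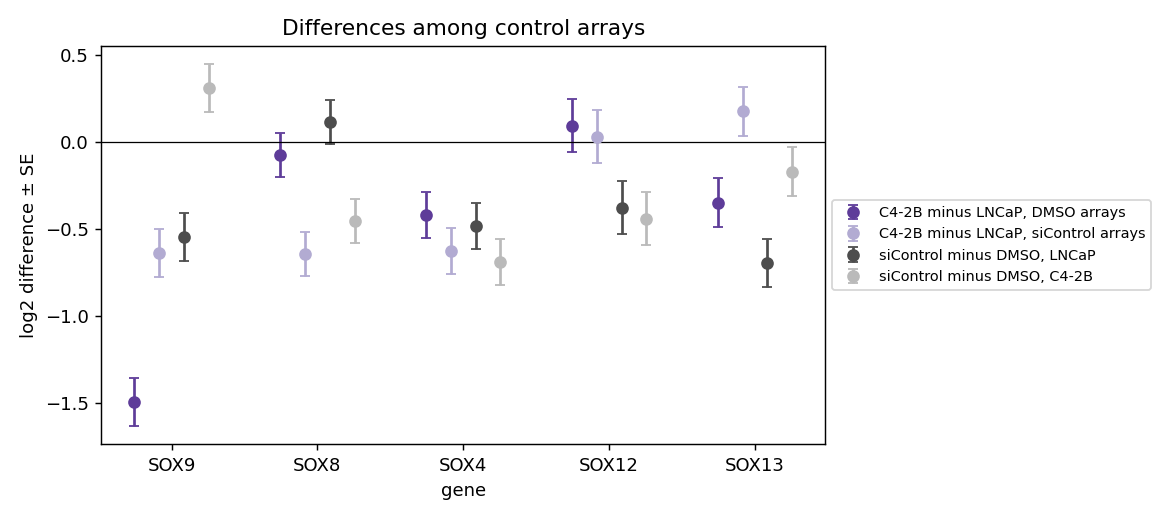
Log2 difference between groups of control arrays (vertical axis) for each SOX gene, in 4 comparisons of 3 against 3 arrays, with bars of 1 standard error of the fit. SOX9 is 1.50 lower in C4-2B than in LNCaP with DMSO but 0.64 lower with siControl, and SOX8 is 0.65 lower in C4-2B with siControl and 0.08 lower with DMSO.

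Of 14 other SOX genes with a probe, 5 passed the filter. SOX1, SOX2, SOX3, SOX5, SOX6, SOX10, SOX14 and SOX17 were detected on 0 arrays and SOX21 on 2, so the third SOXE gene, SOX10, and both SOXD relatives of SOX13 were not detectable here. SOX18, a SOXF factor known from blood and lymph vessel development, rose in C4-2B from 4.91 ± 0.22 (SD, n = 3) with siControl to 5.67 ± 0.12 with siEZH2 (difference 0.76 ± 0.12, limma, adjusted p = 6.7e-05) and from 5.70 ± 0.05 with DMSO to 6.20 ± 0.10 with EPZ6438 (0.50 ± 0.12, adjusted p = 0.0038). In LNCaP its differences were 0.23 (adjusted p = 0.157) and 0.20 (adjusted p = 0.342), and it was detected on 0 of 3 siControl arrays. SOX11, the SOXC relative of SOX4 and SOX12, rose with siEZH2 in LNCaP from 4.56 ± 0.19, where 1 of 3 arrays detected it, to 5.11 ± 0.13 (0.55 ± 0.13, adjusted p = 0.00238). In C4-2B it fell by 0.38 ± 0.13 with siEZH2 (adjusted p = 0.045) and by 0.51 ± 0.13 with EPZ6438 (adjusted p = 0.00756). The SOX11 decrease with siEZH2 was lost in 13 of 19 alternatives, among them the loss of any compared array but siEZH2 replicate 3 (adjusted p 0.0603 to 0.183), and that with EPZ6438 was lost without C4-2B EPZ6438 replicate 3 (adjusted p = 0.07), with arrays centred on the median probe (adjusted p = 0.429) and with only the groups compared (adjusted p = 0.0594). The SOX11 decrease with EPZ6438 was also lost without replicate 2 (adjusted p = 0.0706) or replicate 3 (adjusted p = 0.163) of every group. The SOX11 increase in LNCaP was lost with arrays centred on the probes detected on all arrays (adjusted p = 0.0689). The SOX18 increase with EPZ6438 was lost with arrays centred on the median probe (adjusted p = 0.326) and without replicate 2 of every group (adjusted p = 0.102). SOX7, SOX15 and SOX30 were called in none of the 4 treatment comparisons at an adjusted p under 0.05 in limma. Of all genes, 26.7% and 18.7% were called with siEZH2 in LNCaP and C4-2B, and 6.68% and 15.2% with EPZ6438.

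Genes of cartilage matrix that SOX9 activates in chondrocytes were mostly undetected or not called. Of 19 listed genes 9 passed the filter, and COL2A1 and ACAN, its best-known targets, were detected on 0 arrays. None of the 9 was called higher in any of the 4 comparisons, in which 14.2%, 10.1%, 4% and 8.14% of all genes were, so 0 of 9 lies near the background. One gene was called lower in each of 3 comparisons: COL9A2, a collagen IX chain, with siEZH2 in LNCaP (-0.51 ± 0.17, limma, adjusted p = 0.0311), COL9A1, another collagen IX chain, with siEZH2 in C4-2B (adjusted p = 0.0493), and WWP2, a ubiquitin ligase whose gene hosts a SOX9-driven miRNA, with EPZ6438 in C4-2B (-0.47 ± 0.10, adjusted p = 0.00143). That is 11.1% of the list in each, beside 12.5%, 8.53% and 7.04% of all genes called lower. These counts too lie near the background. COL9A1 was detected on 0 of 3 siEZH2 and 2 of 3 siControl arrays of C4-2B, with measured means of 4.25 and 4.54, and was at least 1.04-fold lower, counted to the lowest detected signal of those arrays. It was detected on 3 of 24 arrays in all, the fewest the filter allows, and 2 of them were these siControl arrays. It thus passed the filter mainly through the group where it is higher, so nothing is read from its call. The COL9A2 call was lost in 8 of 19 alternatives, among them the loss of any compared array but siControl replicate 1 and siEZH2 replicate 3 (adjusted p 0.0642 to 0.135). The COL9A1 call was lost in 13 of 18, among them the loss of any compared array but siControl replicate 3 (adjusted p 0.0619 to 0.176). The WWP2 call was lost with arrays centred on the median probe (adjusted p = 0.697) and without replicate 1 of every group (adjusted p = 0.0515). The median log2 difference of the 9 genes was -0.0224, -0.0254, 0.0149 and -0.0377 in the order siEZH2 in LNCaP and C4-2B, then EPZ6438 in LNCaP and C4-2B.

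Genes of Wnt and beta-catenin signalling, a pathway that SOX proteins bind into through beta-catenin and TCF factors, were called higher more often than lower. Of 19 tested genes, 4 were higher and 1 lower with siEZH2 in LNCaP, 6 and 0 with siEZH2 in C4-2B, 2 and 0 with EPZ6438 in LNCaP, and 5 and 0 with EPZ6438 in C4-2B. Their medians were -0.0093, 0.219, 0.157 and 0.157. Over all genes tested, 14.2%, 10.1%, 4% and 8.14% were called higher and 12.5%, 8.53%, 2.68% and 7.04% lower. The list was drawn up with earlier results of these data known, so nothing is read from these counts. NKD2, a feedback inhibitor of Dishevelled, rose with siEZH2 by 0.98 ± 0.17 in LNCaP (limma, adjusted p = 0.00011). In C4-2B the NKD2 increase was 1.08 ± 0.17 (adjusted p = 8.56e-05). TLE1, a corepressor that TCF factors recruit, rose with siEZH2 by 1.09 ± 0.11 in LNCaP (adjusted p = 3.32e-08), and its increase in C4-2B was 0.55 ± 0.11 (adjusted p = 0.000745). AXIN2, a negative regulator and widely used readout of the pathway, rose by 0.59 ± 0.10 with siEZH2 in C4-2B (adjusted p = 0.000107). These 5 calls held in 19 of 19 alternatives each.

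CTNNB1, which encodes beta-catenin, fell by 0.99 ± 0.16 with siEZH2 in LNCaP (adjusted p = 4.26e-05), a call lost with arrays centred on the median probe (adjusted p = 0.178). With EPZ6438 in C4-2B, LEF1, a TCF-family factor, rose by 0.70 ± 0.11 (adjusted p = 5.37e-05), TLE1 by 0.60 ± 0.11 (adjusted p = 0.000288) and CCND1, which encodes cyclin D1, by 0.50 ± 0.12 (adjusted p = 0.00438). These 3 were lost with the same centring (adjusted p = 0.0678, 0.41 and 0.271). The CCND1 call was also lost without replicate 1 (adjusted p = 0.0552) or replicate 3 (adjusted p = 0.0723) of every group. NKD2 (0.57 ± 0.17, adjusted p = 0.0482) and APCDD1, a Wnt inhibitor at the membrane (0.46 ± 0.13, adjusted p = 0.0291), were called with EPZ6438 in LNCaP, and both calls were lost in most alternatives, in 14 and 12 of 19, among them the loss of any compared array but EPZ6438 replicate 1 (adjusted p 0.0879 to 0.231 for NKD2 and 0.0501 to 0.138 for APCDD1).

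Partners and modifiers of SOX proteins split by gene. Of 16 tested genes, 2 were called higher and 2 lower with siEZH2 in LNCaP, 1 and 0 with siEZH2 in C4-2B, 1 and 1 with EPZ6438 in LNCaP, and 4 and 0 with EPZ6438 in C4-2B, with medians of 0.0826, 0.0791, 0.015 and 0.00489. That is 25%, 6.25%, 12.5% and 25% of the list called, beside 26.7%, 18.7%, 6.68% and 15.2% of all genes. MAF, a leucine zipper factor that acts with SOX9 on cartilage genes, fell by 0.95 ± 0.11 with siEZH2 in LNCaP (limma, adjusted p = 3.22e-07) and rose by 0.67 ± 0.11 with EPZ6438 in LNCaP (adjusted p = 0.000546). Its increase with EPZ6438 in C4-2B was 1.48 ± 0.11 (adjusted p = 6.13e-10). The MAF increase in LNCaP was lost with arrays centred on the median probe (adjusted p = 0.38). It was also lost with only the groups compared (adjusted p = 0.0541) and without replicate 2 of every group (adjusted p = 0.0761). The other 2 MAF calls held in 19 of 19 alternatives each. SDCBP, the scaffold syntenin that stabilises SOX4 protein, fell by 0.71 ± 0.11 with siEZH2 in LNCaP (adjusted p = 1.81e-05), a call lost with the same centring (adjusted p = 0.316). PIAS1, a SUMO ligase, rose by 0.55 ± 0.13 with EPZ6438 in C4-2B (adjusted p = 0.00342), also lost with that centring (adjusted p = 0.349). The PIAS1 call was lost too without replicate 1 (adjusted p = 0.0597) or replicate 2 (adjusted p = 0.0627) of every group.

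The other named calls of the modifiers depended on single arrays. KAT5, an acetyltransferase, was called with siEZH2 in LNCaP (0.54 ± 0.16, adjusted p = 0.0156), and the call was lost in LNCaP when siControl replicate 1 (adjusted p = 0.0598), the second siControl array (0.0537) or the third siEZH2 array (0.0941) was left out. FBXW7, the ubiquitin ligase subunit that marks SOX9 for degradation, was called with siEZH2 in C4-2B (0.34 ± 0.12, adjusted p = 0.0496) with overlapping arrays. It was lost in 15 of 19 alternatives, among them the loss of any compared array but siEZH2 replicate 2 (adjusted p 0.0679 to 0.253). KPNB1, the nuclear import receptor importin beta, was called with EPZ6438 in LNCaP (-0.38 ± 0.10, adjusted p = 0.0293) and lost in 9 of 19, among them the loss of any compared array but DMSO replicate 1 and EPZ6438 replicate 2 (adjusted p 0.0583 to 0.165). TRIP12, a ubiquitin ligase, was called with EPZ6438 in C4-2B (0.45 ± 0.15, adjusted p = 0.0353) and lost in 12 of 19, among them the loss of any compared array but DMSO replicates 1 and 2 (adjusted p 0.0669 to 0.258).

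**Figure D4:**
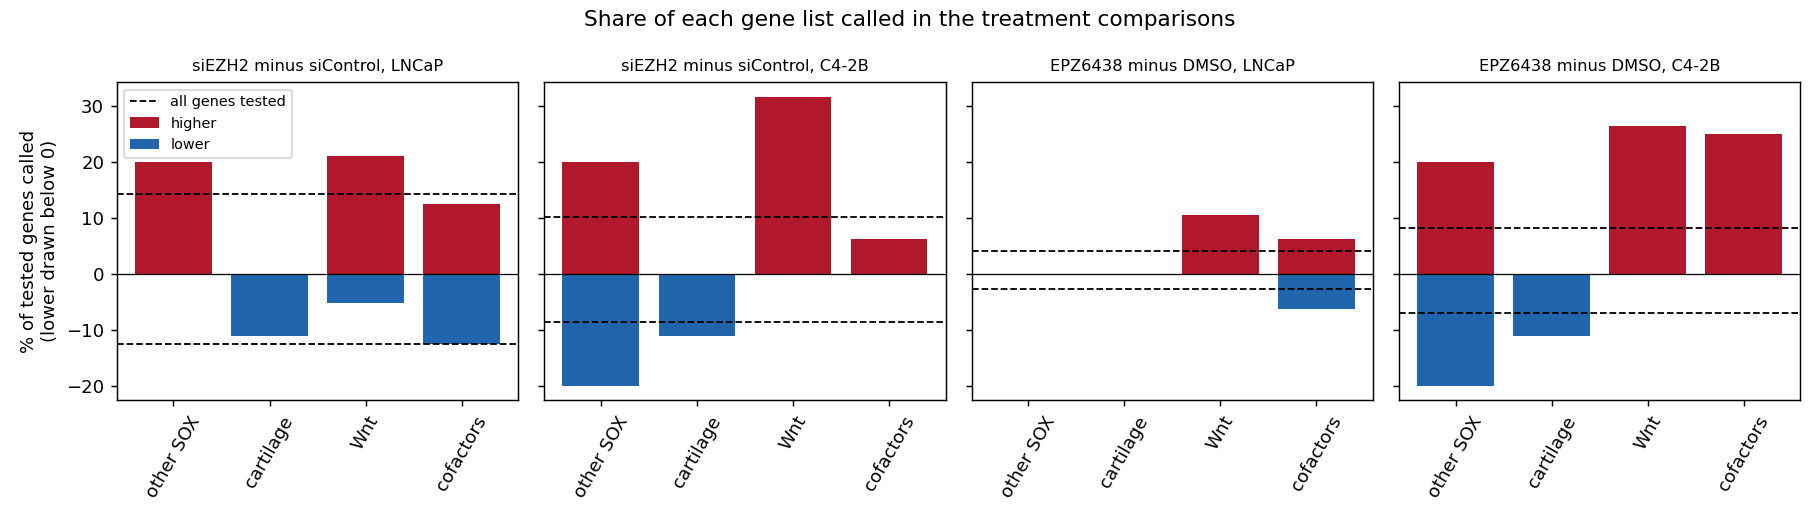
Share of the tested genes of each list called higher (above 0) or lower (below 0), in percent, in the 4 treatment comparisons, with dashed lines at the shares over all 13789 genes. Cartilage genes are called higher in none of the panels, and Wnt genes lie above the dashed line for higher genes in all 4, with 2 to 6 of 19 genes called. The lists were drawn up with earlier results of these data known.

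The genes whose levels followed each SOX gene most closely over the 24 arrays were found by Pearson correlation, given here as a description, since arrays of 1 group share their treatment. For SOX9 they were CD47 (r = 0.945), GBP1 (0.917), CD24 (0.915), SRGAP3 (0.909) and EMP1 (0.907). All 5 shared the direction of the SOX9 line difference in both controls. With DMSO it ran from -0.92 for CD47 to -2.34 for CD24, and with siControl from -0.44 for EMP1 to -1.06 for SRGAP3. For SOX8 they were RNF149 (r = 0.91), POFUT2 (0.91), PIGT (0.907), GNAI2 (0.896) and COLQ (0.89), and their siEZH2 differences ran from 0.58 for PIGT to 1.29 for COLQ in LNCaP. For SOX4 they were ADCY1 (r = 0.924), SLC29A4 (0.916) and SCAMP1 (0.891), for SOX12 SPIRE2 (r = 0.834), ENHO (0.81) and FBXO2 (0.798), and for SOX13 PHLDB1 (r = 0.892), DAZAP1 (0.857) and ZSWIM4 (0.845). Among the 5 genes the closest pairs were SOX4 with SOX9 (r = 0.68) and SOX12 with SOX13 (r = 0.665), while the SOXE pair SOX8 and SOX9 gave 0.281.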

How the data were processed

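RNA from 24 samples in 8 groups of 3 was measured on Illumina bead arrays. The authors deposited un-normalised intensity values, together with the detection p-value of every probe, and a second table of processed intensities. GenomeStudio is named in the submitters' processing notes, and its settings are not given in the sources used here. Read from the deposited values, the first intensity table is linear and without background subtraction.

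Background correction and quantile normalisation to log2 intensity used neqc (limma 3.58.1 in R 4.3.3, with version 1.17.8 of data.table). Negative controls were inferred from the detection p-value. The offset was 16, and it compresses the differences of dim probes. Of 47311 probes, 30108 have 1 gene in the platform annotation, 8 several and 17195 none, and 30069 matched RefSeq (GRCh38.p14) through their Entrez ID. Probes detected (p under 0.05) on 3 or more of the 24 arrays, 26278 in number, were kept, and the brightest of them stood for its gene, for 13789 genes. lmFit and eBayes estimated the 8 group means from all arrays together (16 residual and 7.43 prior degrees of freedom). Adjusted p-values are 2-sided and follow Benjamini and Hochberg over all 13789 genes, with calls made under 0.05. The fit was tested on simulated data. Precision is limited by the number of arrays.

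The 5 genes and all lists (other SOX genes, cartilage, Wnt, and SOX cofactors and modifiers) were chosen with earlier results of these data known. Named are the 5 genes, EZH2, SOX genes that passed the filter, up to 3 called genes with the largest differences per list and treatment comparison, and the 5 (SOX8, SOX9) or 3 most correlated genes; the undetected genes COL2A1, ACAN and the cell type markers come from the lists. Listed genes without a probe in the annotation were not analysed here. Same-numbered arrays mostly showed little shared deviation (4 of 24 pair correlations over 0.1, the highest 0.319), so the main fit does not pair them. Whether the numbers pair the arrays is not settled by this or by the labels. Alternatives were median centring of all or of always-detected probes, no background correction, an offset of 50, the processed table, other detection filters, the mean of a gene's probes, only the groups compared, a replicate block and leaving out arrays.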

Additional observations from a re-analysis of the deposited data

Results flagged for a closer look

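The C4-2B minus LNCaP difference changed with the kind of control for 3 SOX genes, by a test of the difference itself that was added after the values had been seen. Over siControl arrays minus DMSO arrays it was 0.858 for SOX9 (limma, adjusted p = 0.00127), from -1.50 with DMSO to -0.64 with siControl. For SOX8 it was -0.569 (adjusted p = 0.016), from -0.08 to -0.65. For SOX13 it was 0.525 (adjusted p = 0.0425), from -0.35 to 0.18. The same test called 34.1% of all 13789 genes, so a change of this kind was common among all genes. With arrays centred on the median probe the SOX9 and SOX8 calls were lost (adjusted p = 0.0602 and 0.35). The SOX9 call was also lost with centring on the probes detected on all arrays (adjusted p = 0.0793). Of 25 alternatives, the SOX9 call was lost in 3, the SOX8 call in 4 and the SOX13 call in 15. SOX9 was detected on 1 of 3 C4-2B DMSO arrays. These tests reuse the arrays of the control comparisons, and transfection and experiment cannot be told apart in them.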

How the results depend on the processing

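Treated-against-control differences of SOX4, SOX8 and SOX9 kept their sign in all processing alternatives. With arrays left out they did too, except SOX8 with EPZ6438 in LNCaP, which ranged -0.0932 to 0.18. Of 380 alternative values of the 5 genes, 28 moved by more than the spread between arrays. With arrays centred on the median probe, the SOX genes called fell from 3 to 1 between lines with DMSO and to 0 between siControl and DMSO in LNCaP and in C4-2B. The share of all genes called fell as well in these comparisons, from 39.8%, 26.5% and 40.2% to 15.9%, 4.56% and 17.7%. In the siEZH2 comparison of C4-2B and the EPZ6438 comparisons of LNCaP and C4-2B it fell from 18.7%, 6.68% and 15.2%. That centring left 7.59%, 0.203% and 1.92% there. EZH2 after siEZH2 was then -0.64 (adjusted p = 0.0536) in LNCaP and -0.688 (adjusted p = 0.0533) in C4-2B, listed genes called fell to 6 with siEZH2 in C4-2B, and to 0 and 1 for the EPZ6438 comparisons of LNCaP and C4-2B, and SOX13 between siControl and DMSO in C4-2B turned to 0.000773. That centring leaves 86.2% and 93.1% of siEZH2 calls and 92.9% and 68.3% of EPZ6438 calls higher (LNCaP, C4-2B), against 53.3%, 54.3%, 59.9% and 53.6%. Centring on probes detected on all arrays gives 46.6%, 40.4%, 60.6% and 49.4%, with all-gene medians of -0.12 and -0.136 for siEZH2, and 2 SOX genes apart from control with siEZH2 in C4-2B. Listed genes called with EPZ6438 in LNCaP were then 2, as without background correction, and 0 with only the groups compared. Over all alternatives the share of genes called in that comparison ran from 0.203% to 12.9%. EZH2 after EPZ6438 in C4-2B turned to 0.0471 with median centring, 0.00465 without background correction and 0.00246 with an offset of 50. The cause of these changes was not tested.

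Leaving out arrays, SOX genes called ranged 1 to 3 and 3 to 3 between lines (DMSO, siControl), and 2 to 4 and 1 to 4 between controls (LNCaP, C4-2B). SOX genes apart from control with siEZH2 in C4-2B ranged 4 to 5. Listed genes called ranged 8 to 11, 5 to 9, 0 to 3 and 5 to 12 (siEZH2, then EPZ6438, LNCaP first). Over all alternatives the share of all genes called ran 15.9% to 45.8% and 24% to 54% between lines (DMSO, siControl). It ran 4.56% to 34% and 17.7% to 46.3% between controls (LNCaP, C4-2B). In the treatment comparisons it ran 12.2% to 34.2%, 7.59% to 22%, 0.203% to 12.9% and 1.92% to 17.9%. EZH2 after EPZ6438 ranged -0.218 to 0.184 in C4-2B. The SOX12 line difference ranged -0.0108 to 0.199 with DMSO and -0.0739 to 0.186 with siControl, and the difference between them -0.175 to 0.0406. A fit with the replicate block called 27%, 18.8%, 6.78% and 15.6% of genes in the treatment comparisons and lost only the calls of COL9A1 (adjusted p = 0.0515), FBXW7 (0.0599) and SOX11 (0.0537) with siEZH2 in C4-2B among the named genes. Deviations from group means were also correlated between the compared groups, over 8 comparisons that use some arrays more than once. The array of the first group correlated best with its own number in the second in 13 of 24 cases. A slide block was not run, as the files name no slides. SOX9 in C4-2B controls lay near the detection limit, which limits its difference there.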
